A study of Homo sapiens with 4 samples.

Results

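The heat shock proteins of the cytosol were followed through 10 listed genes, namely *HSPA2*, *HSPA1A*, *HSPA1B*, *HSPA4*, *HSPH1*, *HSP90AA1*, *HSP90AB1*, *DNAJB1*, *HSPB1* and *HSF1*. They were taken by name from the 16813 genes listed in at least one library, and all 10 were among the 13148 genes with enough counts to be tested. The list was drawn up because *HSPA2* was higher in osimertinib-resistant cells, so the differences between the lines in these 10 genes are given as a description without p-values, and how many passed the test used for all genes is counted once, beside the share over all genes. The RNA came from PC9 cells, an *EGFR*-mutant human lung adenocarcinoma line labelled as wild-type control, and from PC9OR cells, a line derived from PC9 and labelled as wild-type and resistant to osimertinib, an inhibitor of mutant EGFR. Each line had 2 biological replicates, 4 libraries in all. Both lines were grown in RPMI medium with fetal bovine serum, and the labels do not say whether osimertinib was present at harvest. The resistant state was represented by 1 derived line, so a difference between lines and a difference due to resistance cannot be told apart.

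Heat shock proteins are chaperones that hold, fold and disaggregate other proteins. HSP70 proteins bind short hydrophobic stretches and are driven by ATP, HSP40 proteins deliver clients to them, HSP110 proteins exchange their nucleotide, and HSP90 proteins complete the maturation of clients, among them many kinases including mutant EGFR. In cells under proteotoxic stress HSF1 binds repeats of a short element in the promoters of its target genes and switches them on together, whereas *HSPA8* and *HSP90AB1* are made in most cells without stress and *HSPA2* is best known for its role in spermatogenesis.

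The expected counts summed to between 23201307 and 32203998 per library. The biological coefficient of variation was 0.241 between the PC9 replicates and 0.104 between those of PC9OR. Long transcripts were lower in PC9 replicate 2 than in replicate 1, and in PC9OR than in PC9, with a Spearman correlation across genes between transcript length and the log2 ratio of -0.38 and -0.34, and of -0.01 between the PC9OR replicates. Genes are not independent replicates, and the effect of this trend is given below with offsets for length. The epithelial marker *EPCAM* stood at 334, 334, 319 and 343 CPM (read counts scaled to library size) in PC9 replicates 1 and 2 and PC9OR replicates 1 and 2. The lung markers were near 0, with at most 12 counts of *NKX2-1* and 11 of *NAPSA* in a library and none of *SFTPB*, *SFTPC* or *SFTA3*. Of the 4 leucocyte genes, *PTPRC* had at most 1 count in a library and *CD3E* had 0, *LYZ* ranged from 0.312 to 1.15 CPM, and *CD68*, which is not specific to leucocytes, had 15.5 and 12.7 CPM in PC9 and 6.84 and 6.32 CPM in PC9OR.

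The promoters are shown first because the stress response acts through them. Those of *HSPA2* and of the 3 listed genes nearest to it in fold change are printed. The 250 bases before the start site, from the RefSeq promoter table built on GRCh38.p14, each had 1 exact match on the chromosome in GRCh37, whose coordinates are given. Capitals mark a pair of inverted heat shock units, GAANNTTC or TTCNNGAA, where N is any base. Each of these forms is its own reverse complement, so both strands are covered.
HSPA2, chr14:65007209-65007458, plus strand: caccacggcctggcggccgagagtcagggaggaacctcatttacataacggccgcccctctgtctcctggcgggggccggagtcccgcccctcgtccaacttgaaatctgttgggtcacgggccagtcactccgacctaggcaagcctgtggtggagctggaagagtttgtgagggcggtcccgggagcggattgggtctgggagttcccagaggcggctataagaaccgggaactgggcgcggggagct
HSPA1A, chr6:31783070-31783319, plus strand: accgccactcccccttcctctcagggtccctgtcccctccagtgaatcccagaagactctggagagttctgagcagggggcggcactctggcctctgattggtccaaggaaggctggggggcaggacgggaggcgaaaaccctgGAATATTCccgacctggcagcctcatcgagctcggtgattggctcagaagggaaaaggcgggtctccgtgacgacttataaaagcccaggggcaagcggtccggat
HSPA1B, chr6:31795265-31795514, plus strand: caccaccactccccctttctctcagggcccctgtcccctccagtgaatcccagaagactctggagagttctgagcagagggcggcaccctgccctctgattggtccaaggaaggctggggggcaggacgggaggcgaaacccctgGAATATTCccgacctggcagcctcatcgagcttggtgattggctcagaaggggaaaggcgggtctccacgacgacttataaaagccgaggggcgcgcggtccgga
HSPB1, chr7:75931740-75931989, plus strand: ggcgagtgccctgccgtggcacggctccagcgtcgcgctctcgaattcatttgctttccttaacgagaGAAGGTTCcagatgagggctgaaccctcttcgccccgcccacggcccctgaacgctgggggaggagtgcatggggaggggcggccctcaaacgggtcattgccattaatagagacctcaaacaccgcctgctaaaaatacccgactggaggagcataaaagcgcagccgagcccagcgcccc
The pair GAATATTC lay in the promoters of *HSPA1A* and *HSPA1B*, beginning at positions -106 and -105 from the start site, and GAAGGTTC lay in that of *HSPB1*, beginning at -182. The *HSPA2* window held no such pair, and neither did those of *HSPA4*, *HSPH1*, *HSP90AA1*, *HSP90AB1* and *DNAJB1*. Of the listed genes, 9 had a promoter in the table and *HSF1* did not. A pair was found in 3 of these 9 (33.3%), in 11 of 44 promoters of the other cytosolic chaperones (25.0%), in 8.85% of the 10752 promoters of tested genes and in 11.7% of all 27305 promoters in the table. The longer run of 3 units, GAANNTTCNNGAA or TTCNNGAANNTTC, overlaps the pair and was found in 0 of the 9, in 4 of the 44 (9.09%) and in 0.326% of the promoters of tested genes. A match is a string of letters and not a measured binding site, and the lack of one says nothing of sites outside the window or of looser form. The *HSPA2* window lay inside the annotated span of that gene, chr14:65002623-65012891. An annotated start further upstream was therefore not covered. The *DNAJB1* window, chr19:14640084-14640333 on the minus strand, also lay inside the span of its gene, chr19:14625581-14671203. The *HSP90AA1* window, chr14:102606087-102606336, lay upstream of the whole span of its gene, chr14:102547079-102606036 on the minus strand. Other starts of *DNAJB1*, and starts of *HSP90AA1* inside its span, were therefore not covered either.

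*HSPA2*, the HSP70 gene of the testis that is also read in many tumours, was the least abundant of the 10 genes in every library. The gene spans chr14:65002623-65012891 (GRCh37, plus strand). Its expected counts were 151 and 168 in the PC9 replicates and 682 and 683 in the PC9OR replicates. This gave 6.44 and 5.82 CPM in PC9 and 21.3 and 21.4 CPM in PC9OR, so both resistant libraries lay well above both parental ones. The mean went from 6.13 ± 0.436 to 21.3 ± 0.0443 CPM (SD, n = 2 per line), and the fitted log2 fold change was 1.80 with a standard error (SE) of 0.163, or 3.48-fold. Per length, the level went from 1.62 to 5.50 FPKM (fragments per kilobase of transcript, scaled to depth, mean of 2 libraries). Among all tested genes, 96.7% had a lower log2 fold change. Its sequence is little shared with other genes, since 0.0% of the 50-base words of its transcript occurred in a transcript of another gene.

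*HSPA1A* and *HSPA1B*, the stress-inducible HSP70 genes that encode nearly the same protein, were higher in PC9OR as *HSPA2* was. *HSPA1A* stood at 382 and 380 CPM in PC9 and at 1069 and 1065 CPM in PC9OR. The lines did not overlap and the replicates lay close together, with means of 381 ± 1.07 and 1067 ± 2.82 CPM (SD, n = 2) and a log2 fold change of 1.49 (SE 0.103, 2.80-fold). *HSPA1B* stood at 9.09 and 13.1 CPM in PC9 and at 36.5 and 37.2 CPM in PC9OR, again without overlap. Its means were 11.1 ± 2.84 and 36.8 ± 0.502 CPM (SD, n = 2) and its log2 fold change was 1.73 (SE 0.207, 3.31-fold). The division of reads between these neighbours is uncertain, since 75.1% of the 50-base words of the *HSPA1A* transcript also occurred in *HSPA1B* and 71.6% of those of *HSPA1B* in *HSPA1A*. Their sum does not depend on that division. It was 391 and 393 CPM in PC9 and 1105 and 1102 CPM in PC9OR, with a log2 fold change of 1.49 (SE 0.104).

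*HSPB1*, the small heat shock protein HSP27 that holds unfolded proteins without ATP, had 29.6 and 25.9 CPM in PC9 and 78.0 and 74.4 CPM in PC9OR. The lines did not overlap, and the means were 27.7 ± 2.64 and 76.2 ± 2.55 CPM (SD, n = 2), a log2 fold change of 1.46 (SE 0.126, 2.75-fold). Its transcript is short, at 897 bases against a median of 2989 over the tested genes. Offsets for transcript length brought its log2 fold change to 0.88, and offsets that also took in GC content brought it to 0.90. Of its 50-base words, 13.5% occurred in the transcript of another gene, mostly the pseudogene *HSPB1P1*.

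*DNAJB1*, the HSP40 protein that brings clients to inducible HSP70, was higher in PC9OR by a smaller step. It stood at 192 and 175 CPM in PC9 and at 273 and 255 CPM in PC9OR. The lines did not overlap, with means of 183 ± 12.1 and 264 ± 12.7 CPM (SD, n = 2) and a log2 fold change of 0.53 (SE 0.112, 1.44-fold).

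The HSP110 genes, whose proteins are nucleotide exchange factors of HSP70, differed from each other. *HSPA4* had 441 and 513 CPM in PC9 and 609 and 622 CPM in PC9OR, a log2 fold change of 0.37 (SE 0.122) in which both resistant libraries were above both parental ones. *HSPH1*, which is the stress-inducible one, had 450 and 385 CPM in PC9 and 384 and 407 CPM in PC9OR. Here the lines overlapped and the log2 fold change was -0.08 (SE 0.126). It was 0.18 with offsets for length and 0.00 with offsets that also took in GC content, so its sign is not settled.

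The cytosolic HSP90 genes were the most abundant members and overlapped between the lines. *HSP90AA1*, the inducible form, had 5348 and 4824 CPM in PC9 and 4477 and 5029 CPM in PC9OR, a log2 fold change of -0.10 (SE 0.118). *HSP90AB1*, the constitutive form, had 2221 and 2339 CPM in PC9 and 2208 and 2405 CPM in PC9OR, a log2 fold change of 0.02 (SE 0.108). For both genes the difference between lines was smaller than its standard error, and the sign for *HSP90AB1* turned to -0.03 with offsets for length. The ratio of their FPKM values was 1.91 and 1.64 in PC9 and 1.61 and 1.66 in PC9OR. Pseudogene copies share part of both transcripts, with 19.1% of the 50-base words of *HSP90AA1* and 19.7% of those of *HSP90AB1* found in another gene.

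*HSF1*, the transcription factor of the heat shock response, was the listed gene that was lower in PC9OR in both replicates. It stood at 81.9 and 48.4 CPM in PC9 and at 42.5 and 34.3 CPM in PC9OR. The lines did not overlap, but the PC9 replicates lay further apart than PC9 replicate 2 lay from PC9OR replicate 1. The means were 65.1 ± 23.7 and 38.4 ± 5.84 CPM (SD, n = 2) and the log2 fold change was -0.76 (SE 0.279). Without PC9 replicate 1 it was -0.34 and without PC9 replicate 2 it was -1.11, so the size rests on which parental library is used.

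**Figure D1:**
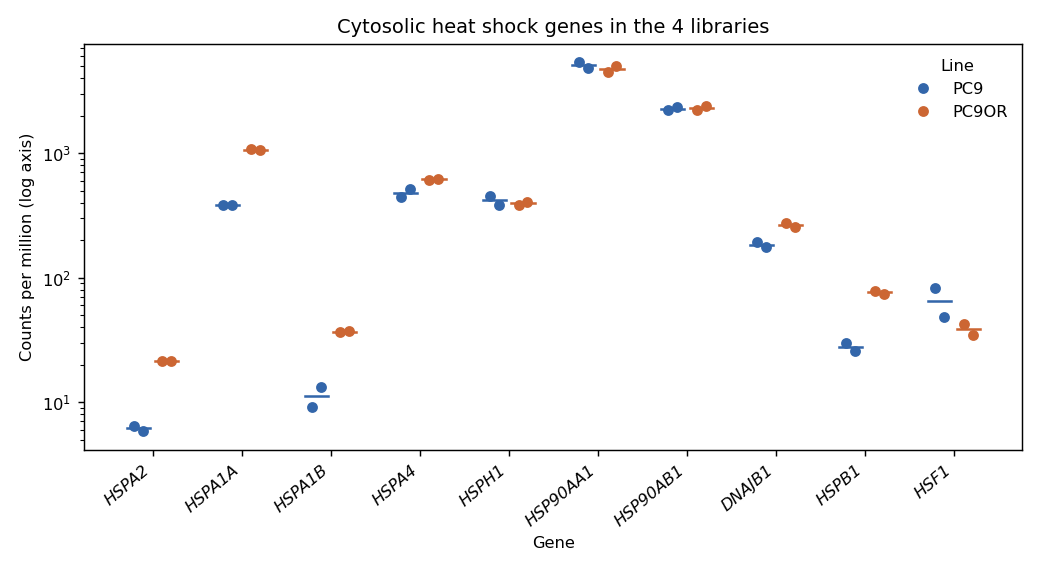
CPM of the 10 genes on a log axis, with 1 point per library, blue for PC9 and orange for PC9OR, and a bar at the mean of each line. The 2 orange points of *HSPA2* sit at 21.3 and 21.4 above blue points at 6.44 and 5.82, and those of *HSPH1*, *HSP90AA1* and *HSP90AB1* overlap the blue points.

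In all, 5 of the 10 genes passed an adjusted p of 0.05 as higher in PC9OR (*HSPA2*, *HSPA1A*, *HSPA1B*, *DNAJB1* and *HSPB1*) beside 15.6% of all tested genes, and 0 passed as lower beside 20.8%. *HSF1* passed as lower by DESeq2's Wald test, with offsets for length and with offsets that also took in GC content. *HSPA4* passed as higher under the same alternatives. Without PC9 replicate 2 the log2 fold changes of *HSF1* and *HSPH1* were -1.11 and -0.20, and each passed as lower. *HSPA4* passed as higher without PC9 replicate 1 (0.26) and without PC9 replicate 2 (0.46). The log2 fold change of *DNAJB1* was 0.48 without PC9OR replicate 1 and 0.58 without PC9OR replicate 2 (SE 0.273 in each), and its call was lost. Over 2-fold, 4 passed as higher beside 6.13% of all tested genes, and 0 as lower beside 11.6%. In 6 genes the lower PC9OR library exceeded the higher PC9 library, beside 39.6% of all tested genes, and in 1 gene the order was the opposite, beside 38.2%. The median log2 fold change was 0.45 over the 10 genes and 0.01 over all tested genes. Since the list was made with this contrast in view, nothing is read from these counts. Under an adjusted p of 0.001 with over 2-fold change, 0 of all tested genes passed in either direction by edgeR's quasi-likelihood test without offsets or a replicate block. In that fit 3137 genes were higher and 3516 lower at an unadjusted p under 0.05. At the strict threshold the same test passed 35 as higher and 42 as lower with offsets for length, and 304 and 880 with a replicate block. DESeq2's Wald test passed 502 and 1227.

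With the genes ordered by difference, *HSPA2* at 1.80 and *HSPA1B* at 1.73 were closer to each other than their standard errors, and *HSPA1A* at 1.49 and *HSPB1* at 1.46 followed. The order at the top was not stable, because without PC9 replicate 2 *HSPA1B* reached 2.00 and *HSPA2* 1.71. *DNAJB1* and *HSPA4* came next, both HSP90 genes and *HSPH1* lay near 0, and *HSF1* was last. The higher level of *HSPA2* was therefore shared by 3 other listed genes at more than 2-fold, of which *HSPB1* came under 2-fold with offsets for length. The HSP90 genes and *HSPH1* overlapped between the lines in CPM.

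**Figure D2:**
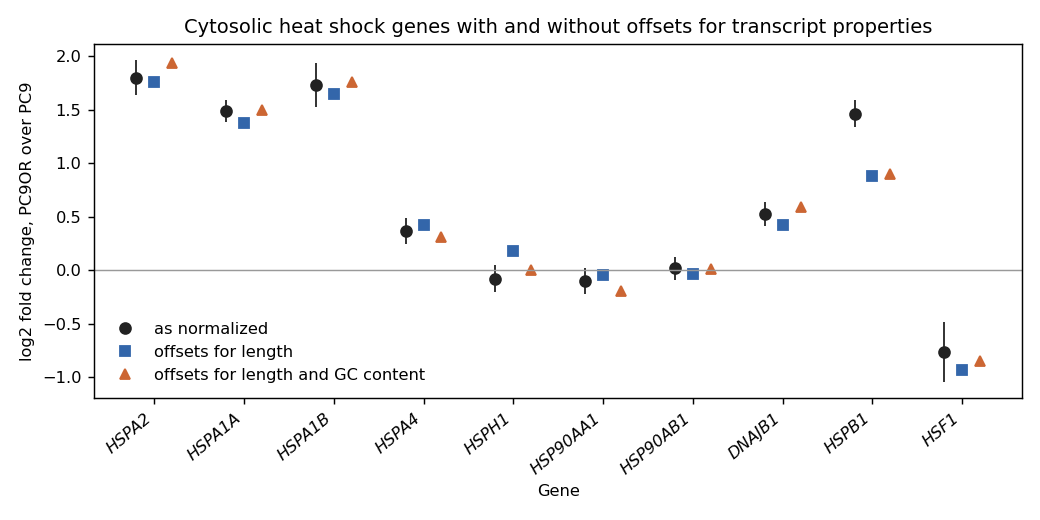
Log2 fold changes of the 10 genes, PC9OR over PC9, as normalized (circles, bars of 1 standard error), with offsets for transcript length (squares) or for both length and GC content (triangles). *HSPA2* stays between 1.76 and 1.94, whereas *HSPB1* goes from 1.46 to 0.88 and 0.90.

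The order of levels is given per length, in FPKM. In every library the order ran *HSP90AA1*, *HSP90AB1*, *HSPA1A* and *HSPA4* at the top, and *HSPA1B* and *HSPA2* were last. *HSP90AA1* ranged from 949 to 1162 FPKM, *HSP90AB1* from 590 to 630 FPKM. *HSPA1A* was at 117 and 114 FPKM in PC9, just above *HSPA4* at 95.4 and 108 FPKM, and at 320 and 313 FPKM in PC9OR, where *HSPA4* had 128 and 129 FPKM. *HSPH1* and *DNAJB1* changed places between the PC9 replicates, at 60.8 and 50.8 against 59.4 and 53.0 FPKM, and so did *HSF1* and *HSPB1*, at 28.2 and 16.3 against 27.2 and 23.4 FPKM. In PC9OR *HSPB1*, at 71.4 and 66.4 FPKM, lay above *HSPH1* at 50.5 and 52.4 FPKM. Among all genes listed, *HSPA2* ranked 9820 and 9857 by FPKM in the PC9 replicates and 6691 and 6684 in the PC9OR replicates. The share of all FPKM held by the 10 genes was 0.703% and 0.566% in PC9 and 0.537% and 0.570% in PC9OR, so the lines overlapped. The share of the HSP90 pair was 0.575% and 0.462% in PC9 and lower, without overlap, at 0.372% and 0.409% in PC9OR. Such shares also depend on the summed FPKM, which ran from 307648 in PC9 replicate 1 to 413521 in PC9OR replicate 1.

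Set beside the rest of the cytosolic HSP70 messenger RNA, *HSPA2* was a small part. *HSPA8*, the constitutive HSP70 gene HSC70, had 4135 and 4818 CPM in PC9 and 3290 and 3274 CPM in PC9OR. It fell by 0.45 on the log2 scale (SE 0.119, adjusted p = 0.0401, edgeR quasi-likelihood, Benjamini-Hochberg), but the adjusted p ran from 0.00219 to 0.256 over the alternatives. The call was lost in 6 of 16 of them, namely without PC9OR replicate 1 or 2 (0.243 and 0.256), on log2(FPKM + 1) or log2(FPKM + 0.1) with limma (0.236 and 0.226) and under both other filters on low counts (0.051). Of the summed FPKM of *HSPA8*, *HSPA1A*, *HSPA1B*, *HSPA2*, *HSPA1L* and *HSPA6*, *HSPA8* made up 91.1% and 92.2% in PC9 and 74.2% in each PC9OR library. *HSPA1A* made up 8.52% and 7.37% in PC9 and 24.4% and 24.5% in PC9OR. *HSPA2* made up 0.126% and 0.0984% in PC9 and 0.423% and 0.426% in PC9OR. *HSPA8* was thus 726 and 937 times as abundant as *HSPA2* in PC9 and 175 and 174 times in PC9OR, and *HSPA1A* 67.9 and 74.9 times in PC9 and 57.7 and 57.3 times in PC9OR. The ratio of *HSPA8* to *HSPA1A* went from 10.7 and 12.5 to 3.04 and 3.03.

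**Figure D3:**
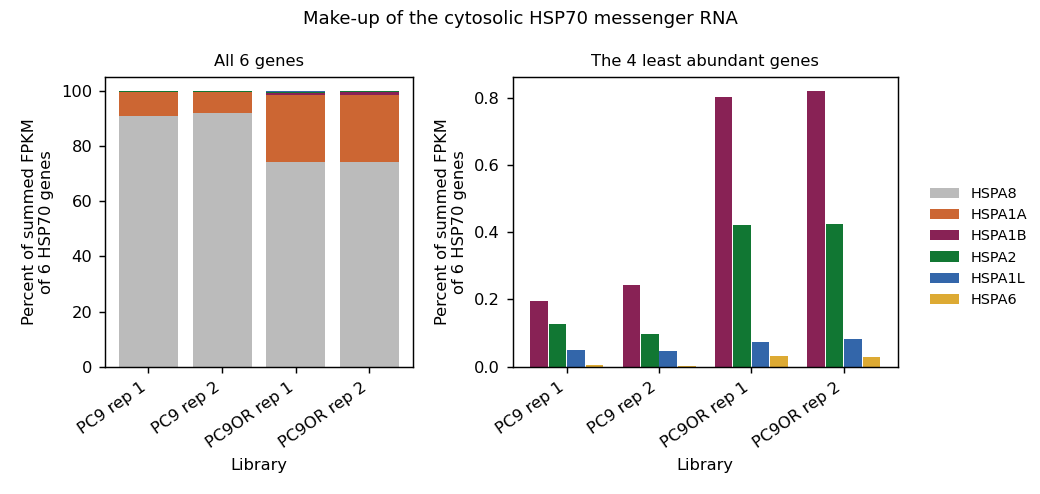
Percent of the summed FPKM of 6 cytosolic HSP70 genes in each library, with all 6 genes stacked on the left and the 4 least abundant on the right with their own axis. The *HSPA8* share is 91.1% and 92.2% in PC9 and 74.2% in both PC9OR libraries, and the *HSPA2* bars stand at 0.126% and 0.0984% in PC9 and at 0.423% and 0.426% in PC9OR.

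The remaining cytosolic HSP70 genes differed among themselves. *HSPA6*, an HSP70 gene that is nearly silent without stress, had 6 and 2 counts in PC9 and 42 and 40 counts in PC9OR. It rose by a fitted log2 fold change of 2.99 (SE 0.669, adjusted p = 0.0264, edgeR quasi-likelihood, Benjamini-Hochberg). The fitted value was 4.12 without PC9 replicate 1 and 2.29 without PC9 replicate 2. The count of PC9 replicate 2 was under the 3 counts taken as the smallest detectable, the adjusted p was 0.107 and 0.0946 without PC9OR replicate 1 or 2, and 45.8% of its 50-base words occurred in another transcript, mostly that of *HSPA7*. *HSPA1L*, the testis gene beside *HSPA1A*, had 2.26 and 2.60 CPM in PC9 and 3.43 and 3.72 CPM in PC9OR, a log2 fold change of 0.56 that did not pass the same test (adjusted p = 0.169). Over the 15 tested genes of the HSP70 and HSP110 families in all compartments, *HSPA6* came first by log2 fold change, followed by *HSPA2*, *HSPA1B*, *HSPA1A* and *HSPA1L* in that order.

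The wider set of cytosolic chaperones held 54 genes of 7 families outside the list, of which 44 were tested. By edgeR's quasi-likelihood test, 14 rose in PC9OR (31.8%, beside 15.6% of all tested genes) and 5 fell (11.4%, beside 20.8%), and 25 did not pass. Only 2 of the 44 passed at more than 2-fold as higher, *HSPA6* and *DNAJB4*, beside 6.13% of all tested genes. As lower 1 of the 44 passed, *BAG3*, beside 11.6%. The median log2 fold change was 0.32, and 0.20 and 0.15 with offsets for length and for length and GC content. Over all 13148 tested genes, 2238 rose and 2753 fell with offsets for length. When GC content was taken in as well, 2466 rose and 3033 fell. The family counts with offsets below are to be read beside these. The count of rises grew without PC9 replicate 2 and shrank steeply without either PC9OR library, where *DNAJB4* was the only rise left. The count of falls grew without PC9 replicate 1 and shrank without either PC9OR library. Rises and falls over all tested genes moved the same way in these fits, so the swing was not particular to the chaperones.

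*DNAJB4*, an HSP40 gene of the same subfamily as *DNAJB1*, had 22.4 and 34.8 CPM in PC9 and 77.9 and 85.4 CPM in PC9OR. It rose by 1.51 on the log2 scale (SE 0.232, adjusted p = 0.0116, edgeR quasi-likelihood, Benjamini-Hochberg), beside 1.49 for *HSPA1A*. Of the 8 tested HSP40 genes outside the list, 2 rose (25%, beside 15.6% of all tested genes) and 0 fell, beside 20.8%. With offsets for length 3 rose and 1 fell. The rises without offsets were *DNAJB4* and *DNAJA1*, the latter at 0.59 (SE 0.16, adjusted p = 0.0421, the same test). Without PC9OR replicate 1 or 2 the value of *DNAJA1* was 0.63 and 0.57 (SE 0.291 in each), and its call was lost. *BAG3*, a nucleotide exchange factor of HSP70 that is a usual target of HSF1, went the other way, from 102 and 70.0 CPM in PC9 to 32.7 and 32.0 CPM in PC9OR. It fell by 1.41 (SE 0.206, adjusted p = 0.0107, the same test). Among the 10 tested HSP70 co-chaperones, 1 rose (10%, beside 15.6% of all tested genes) and 3 fell (30%, beside 20.8%). With offsets for length, 3 rose and 3 fell. *STIP1*, which links HSP70 to HSP90, stood at 0.10 (adjusted p = 0.501, the same test).

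Among the 9 tested co-chaperones of HSP90, 4 rose (44.4%, beside 15.6% of all tested genes) and 0 fell, beside 20.8%. These counts became 2 and 1 with offsets for length, and 5 and 2 when GC content was taken in as well. *AHSA1*, which stimulates the ATPase of HSP90, had 384 and 474 CPM in PC9 and 714 and 761 CPM in PC9OR. It rose by 0.78 (adjusted p = 0.0169, edgeR quasi-likelihood, Benjamini-Hochberg), a call lost without PC9OR replicate 1 or 2 (0.079 and 0.112). Of the 8 subunits of TRiC, the ring chaperonin that folds actin and tubulin, 4 rose (50%, beside 15.6%) and 0 fell, beside 20.8%. Their median log2 fold change was 0.51. With offsets for length 4 rose and 0 fell, and 4 and 1 when GC content was added. The most abundant subunit, *CCT6A*, stood at 0.21 (adjusted p = 0.29, the same test).

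The small heat shock proteins other than *HSPB1* were scarce. Of 8 genes, 4 had a count in any library and 1 was tested. *HSPB8*, the partner of BAG3, had 93.9 and 84.6 counts in PC9 and 53.3 and 10.6 counts in PC9OR. Its log2 fold change was -1.79 (SE 0.738, adjusted p = 0.111, edgeR quasi-likelihood, Benjamini-Hochberg), with the PC9OR replicates far apart and an adjusted p of 0.0198 without PC9OR replicate 1. *CRYAB*, a common stress-inducible member, had 0 counts in each library, which allows up to 0.0936 to 0.128 CPM if 3 counts are taken as the limit. Of the factors beside *HSF1*, *HSF2* stood at 0.43 (adjusted p = 0.0571), and *HSBP1*, whose protein binds HSF1, rose by 0.90 (adjusted p = 0.0299), a call lost without PC9OR replicate 1 or 2 (0.0674 and 0.0984).

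**Figure D4:**
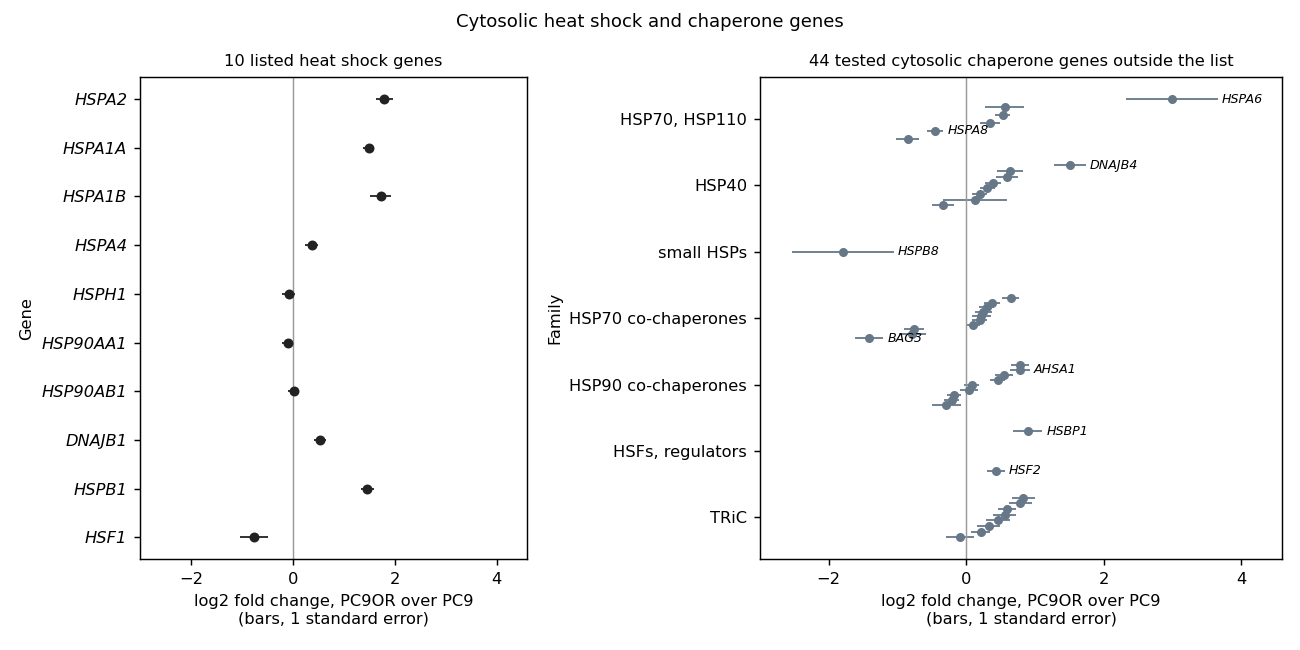
Log2 fold changes, PC9OR over PC9, with bars of 1 standard error, for the 10 listed genes on the left and for the 44 tested cytosolic chaperones outside the list on the right, grouped by family. *HSPA2*, *HSPA1A*, *HSPA1B* and *HSPB1* lie between 1.46 and 1.80 on the left, and *HSPA6*, *DNAJB4* and *BAG3* stand furthest from 0 among the genes that passed the test on the right.

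Counterparts of the listed proteins were also read in other compartments. Of 8 tested genes of the endoplasmic reticulum, 1 rose (12.5%, beside 15.6% of all tested genes) and 3 fell (37.5%, beside 20.8%). Of 6 mitochondrial genes, 1 rose (16.7%) and 0 fell. The median log2 fold changes were -0.16 and 0.35. In the endoplasmic reticulum *HSPA5*, the HSP70 protein BiP, fell by 0.98 (SE 0.13, adjusted p = 0.00913), *HSP90B1*, the HSP90 protein GRP94, fell by 0.98 (SE 0.109, adjusted p = 0.00683), and *HYOU1*, the HSP110 protein, fell by 1.42 (SE 0.142, adjusted p = 0.00579), all by edgeR quasi-likelihood, Benjamini-Hochberg. Without PC9OR replicate 1 the adjusted p was 0.0628 for *HSPA5* and 0.0569 for *HSP90B1*. *SERPINH1*, the collagen chaperone HSP47, which is also a target of HSF1, rose by 1.15 (adjusted p = 0.00686), and 4 of the 8 tested genes of this compartment did not pass. In mitochondria *HSPA9* stood at 0.39 (adjusted p = 0.0879), *HSPD1* at 0.38 (adjusted p = 0.0878) and *HSPE1* rose by 0.96 (adjusted p = 0.0282), which became 0.17 when offsets took in length and GC content (adjusted p = 0.147) and whose call was lost without PC9OR replicate 2 (0.0938). *UBB*, a ubiquitin gene that responds to stress, rose by 1.39 (adjusted p = 0.0112).

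Over the 10 tested genes on either side of *HSPA2* on chromosome 14, the median log2 fold change was 0.13, with a range from -3.58 to 4.33. Of these 20 genes 3 rose and 3 fell, close to the 15.6% and 20.8% of all tested genes. The 3 that fell were the farthest on the left, and the 3 that rose lay on the right. The median was -0.20 over the 10 genes on the left and 0.32 over the 10 on the right. The nearest gene on the left, *ZBTB1*, had a log2 fold change of 0.14 (adjusted p = 0.444, edgeR quasi-likelihood, Benjamini-Hochberg), and it was followed by *AKAP5* at 0.56 (adjusted p = 0.231) and *ZBTB25* at -0.29 (adjusted p = 0.301). The nearest on the right, *PLEKHG3*, stood at -0.50 (adjusted p = 0.205), and *CHURC1*, the third, at 0.46 (adjusted p = 0.0983). Between them *SPTB*, the spectrin of red cells, rose from 0.512 and 1.32 CPM to 11.5 and 12.9 CPM, a log2 fold change of 3.71 (SE 0.462, adjusted p = 0.00827), which was 3.20 without PC9 replicate 1 and 4.54 without PC9 replicate 2. *GPX2*, a glutathione peroxidase and the fifth on the right, rose by 4.33 (SE 0.127, adjusted p = 0.00155, the same test). With *HSPA2* itself at 1.80, *SPTB* and *GPX2* were the genes of the stretch that were higher by more than 2-fold.

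**Figure D5:**
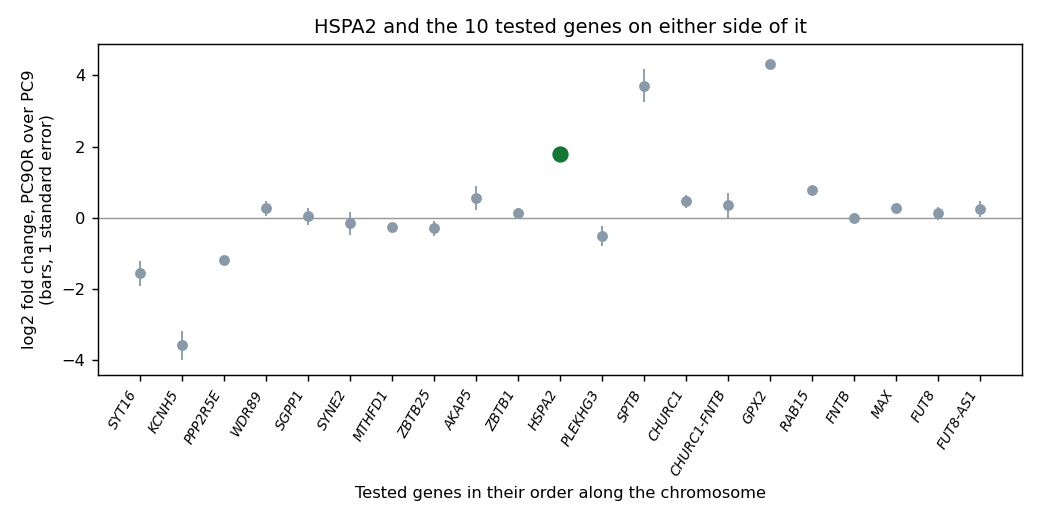
Log2 fold changes, PC9OR over PC9, of *HSPA2* (green) and of the 10 tested genes on either side in their order along the chromosome, with bars of 1 standard error. The immediate neighbours *ZBTB1* and *PLEKHG3* lie at 0.14 and -0.50 beside *HSPA2* at 1.80, and *SPTB* and *GPX2* stand above it at 3.71 and 4.33.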

How the data were processed

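RNA of PC9 and PC9OR cells was extracted with TRIzol and made into stranded libraries, which were sequenced on an Illumina HiSeq, and the authors filtered the reads with SOAP. The submitters' processing notes name Bowtie2 2.2.5, RSEM 1.2.12 and GRCh37. For each gene with a count above 0, the authors deposited an expected count (an estimated read number, not normalized), an FPKM value and a transcript length weighted by isoforms. A gene not listed in a library was taken as 0. Entrez identifiers were given symbols from a RefSeq gene table, for 99.66% of 16813 genes, and positions came from the GENCODE annotation lifted to GRCh37. The paper names DEGseq for this comparison, which was not used here.

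Expected counts were rounded to whole numbers. Differences were tested by edgeR 4.0.16 in R 4.3.3 (filterByExpr, TMM, quasi-likelihood test) over 13148 genes, with Benjamini-Hochberg adjustment over all of them and a threshold of 0.05. The script was tested on simulated data. CPM used the TMM-scaled library totals, and the standard error is the log2 fold change divided by the root of the F statistic. FPKM served for levels between genes. With totals from 23201307 to 32203998, 3 counts, taken as the smallest detectable, are 0.0936 to 0.128 CPM, which covers counting error only. The labels call the replicates biological but do not say how the cultures were kept apart, so p-values measure the spread between these samples.

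Genes named were each listed gene, genes of the wider lists past the threshold at over 2-fold, the most abundant of each list, 11 set genes (*HSPA8*, *HSPA6*, *HSPA1L*, *HSPA5*, *HSP90B1*, *HSPA9*, *HSPD1*, *HSPE1*, *BAG3*, *CRYAB*, *HSF2*) and the 3 tested genes nearest *HSPA2* on either side. The listed genes and the wider lists were chosen with earlier results of these data known. Shared sequence was measured as the percent of 50-base words of a transcript found in a transcript of another gene. Alternatives were DESeq2 1.42.0 size factors and Wald test, library totals without TMM, limma 3.58.1 on log2(FPKM + 1) and log2(FPKM + 0.1), other filters, a replicate block, smooth offsets for transcript length (mgcv 1.9.3), and each library left out. Offsets for length and GC content were added after seeing the data.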

Additional observations from a re-analysis of the deposited data

How the results depend on the processing

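*HSPA2* was higher in PC9OR under each alternative run. Its log2 fold change of 1.80 was 1.31 on log2(FPKM + 1) and 1.70 on log2(FPKM + 0.1), scales on which a pseudocount understates low genes, 1.94 with offsets for length and GC content with or without the replicate block, and 1.71 to 1.86 with 1 library left out. The count of cytosolic chaperones outside the list that rose (14) was 0 at an adjusted p under 0.001 with over 2-fold change, where 0 genes of the whole table passed, and ran from 1 to 26 with 1 library left out. The count that fell (5) was 0 at that threshold, 8 with offsets for length combined with the replicate block and 8 under offsets for length and GC content with or without the block, and ran from 1 to 10 with 1 library left out. Signs reversed for *STIP1*, at -0.05 with offsets for length with or without the replicate block, and *ZBTB1*, at -0.06 with offsets for length and GC content with or without the block. The causes were not tested.

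Same-numbered libraries deviated together with a correlation of 0.054 across genes, so the numbers were not taken as pairing. With the replicate block, the log2 fold change of *HSPA2* was 1.80, 17 chaperones rose and 6 fell. Under the block *HSF1* passed as lower, and *HSPB8* (-2.10, adjusted p = 0.0164), *HSF2* (0.43, 0.0467), *PLEKHG3* (-0.50, 0.0266) and *CHURC1* (0.48, 0.0376) passed where they had not. Leaving out a PC9OR library lowered the rises over all tested genes from 2056 to 525 and 527, and leaving out PC9 replicate 1 or 2 raised them to 2833 and 3932. Each line had 2 libraries, so a left-out fit assumes that the lone library varies like the other line.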

Other observations

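Of 10 germ cell genes set beside *HSPA2*, 5 had a count in any library, and *DAZL*, *DDX4*, *SYCP3* and *TEX101* had at most 8 counts in a library. *MAGEA4*, a cancer-testis antigen, had 85.1 and 117 CPM in PC9 and 202 and 221 CPM in PC9OR, and rose by 1.06 on the log2 scale (SE 0.181, adjusted p = 0.0143, edgeR quasi-likelihood, Benjamini-Hochberg). Among the epithelial markers, *KRT8* rose by 1.28 (adjusted p = 0.00568), and *CDH1*, the adhesion protein E-cadherin, fell by 1.46 (adjusted p = 0.00814) by the same test. The other keratins also rose, *KRT18* by 1.13, *KRT19* by 0.96 and *KRT7* by 0.94. *CDH5*, the cadherin of endothelial cells, had 34.7 and 24.0 CPM in PC9 and 5.06 and 4.78 CPM in PC9OR and fell by 2.57 (SE 0.234, adjusted p = 0.00529). The keratin, cadherin and *MAGEA4* genes named here were chosen after their values were seen.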
